A study of Mus musculus with 4 samples.

Results

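The cells described here are cells with endothelial genes from the mouse atrioventricular canal at embryonic day 9.5 (E9.5). The rule below set them outside the cushion programme. They number 68 of the 1206 cells in the E9.5 library and of the 2160 cells in the whole series. Cells were first kept if they had at least 500 detected genes and at most 10% mitochondrially encoded molecules, which 1199 of the 1206 did. Molecules are counted by unique molecular identifiers (UMIs), each standing for 1 captured transcript. A cardiac gate (Myl7, Myl4, Tnnt2 and Actc1 together under 100 UMIs per 10000 UMIs of the cell) and a globin gate (alpha and beta globins under 1000 per 10000) then left 406 cells. Of these, 153 had at least 1 UMI of at least 4 of 6 endothelial genes: Cdh5, Pecam1, Emcn, Egfl7, Ecscr and Esam. The 85 of them with at least 2 Msx1 UMIs, at least 5 Hapln1 UMIs and no Prrx1 UMI were left out and are called cushion cells. The remaining 68, called members and thus chosen by the measured UMIs of these genes, made up 16.7% of the gated cells (95% exact Clopper-Pearson interval 13.2 to 20.7). These intervals, and all those below, cover counting error only.

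The study sorted red fluorescent cells from mouse hearts to follow how the mitral valve forms. The E9.5 library came from microdissected atrioventricular canals of C57BL/6 embryos, in which the Tie2cre driver switches on a tdTomato reporter at Rosa26. Mitral valves at E16.5 (1 library) and at birth, P0 (2 libraries), had the same cross and the same sort. At least 60 embryos were pooled per stage, so each library is a pool and E9.5 has no replicate. Cre under the Tie2 promoter marks endothelial cells and their descendants, and also blood cells, and the sort did not leave a pure population: 544 E9.5 cells were past the cardiac gate and 249 past the globin gate. Because there is 1 library and cells of 1 library are not replicates, no p-value is given and every comparison below is a description of this library.

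The endocardium is the endothelial lining of the heart. In the atrioventricular canal it receives signals from the underlying myocardium, and part of it leaves the lining and enters the cardiac jelly as cushion mesenchyme, from which the valves are built. Cells that stay in the lining keep junctions, sense blood flow and send signals such as neuregulin back to the myocardium. Endothelial cells of vessels share most of the general endothelial genes with the endocardium but not its cardiac transcription factors.

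The members held 1563044 UMIs in all, with a median of 20489 per cell (range 5520 to 55320). The cushion cells had a median of 24066 UMIs, and the 253 other gated cells, those with under 4 of the 6 endothelial genes, had a median of 23477. All 6 endothelial genes were detected in 41 members, 5 in 17 and 4 in 10. Just outside that cut lay 35 gated cells with 3 of the genes. A doublet caller marked 5 of the 1206 cells, none of them a member or a cushion cell. That is too few to take the caller as working, so it does not show that members are single cells. Levels are given as UMIs summed over a class per 10000 UMIs of that class, with a 95% exact Poisson interval.

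Msx1, a homeobox factor of cushion mesenchyme, did most of the separating between members and cushion cells. Msx1 had 0 UMIs in 43 members and 1 UMI in 20, and the 5 members with 2 or more stayed in through Prrx1 or a low Hapln1 count. Hapln1, which links hyaluronan to proteoglycans in cardiac jelly, reached the cut of 5 UMIs in 57 of the 68 members. Its count per member ran from 2 to 60 with a median of 14, against a median of 25 in cushion cells. The rule therefore took in mostly cells with the jelly gene and without Msx1. The Msx1 cut was populated on both sides, with 20 members at 1 UMI and 8 cushion cells at exactly 2. At the Hapln1 cut, 8 members had exactly 4 UMIs and 0 cushion cells had exactly 5. By these cuts, 53 members had Hapln1 only, 10 had neither, 1 had Msx1 only and 4 had both together with Prrx1. The cuts are on raw UMIs: the 10 members with neither had a median of 9184.5 UMIs and the 53 with Hapln1 only a median of 24637, and the part of depth in this split was not tested.

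The label markers were present as the rule made them. Plvap, which forms the diaphragms of endothelial fenestrae and caveolae and was not part of the rule, was detected in 67 of the 68 members. Its level was 7.16 (6.75 to 7.59) in members, 6.26 (5.93 to 6.61) in cushion cells and 0.265 (0.226 to 0.31) in the other gated cells. Single members ran from 0 to 14.6 per 10000 with a median of 6.62. After every cell was thinned to 5000 UMIs, 88.2% of members had a Plvap UMI, against 84.7% of cushion cells, 2.21% of cells past the cardiac gate (median depth 23479 UMIs) and 3.61% past the globin gate (32559). The last pair of shares shows the background that free RNA can give.

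The other label markers chose the members, so their levels are given without comment on their difference. Emcn, the sialomucin endomucin, stood at 3.01 in members, 1.16 in cushion cells and 0.0182 in other gated cells. Cdh5, the adhesion molecule of endothelial junctions, stood at 2.33, 1.83 and 0.0481 in the same order. Egfl7, a secreted factor of the endothelial matrix, stood at 4.90, 2.86 and 0.794. Egfl7 was also the marker with the highest background, with a UMI in 15.1% of thinned cells past the cardiac gate and 12.9% past the globin gate.

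Markers of other cell types were low in the members. The macrophage list summed to 0.096 per 10000 in members and 0.923 in other gated cells, with 2 of its 8 genes, among them Ptprc (CD45), at 0 in members. The platelet list summed to 0.0832 against 4.33 in other gated cells, the pharyngeal or limb mesenchyme list to 0.371 against 6.04, the epicardial list to 0.371 against 4.22 and the epithelial list to 0.595 against 5.18. Runx1 and Gfi1, factors of blood-forming endothelium, had no UMI in any member, which allows up to 0.0192 per 10000 (3 UMIs over the class). The haemogenic list nevertheless summed to 3.92, against 3.28 in cushion cells, through Cd34, Tal1 and Lyl1, which endothelium also expresses. Erythroid RNA was nearly even below the globin gate: the erythroid list summed to 67.8 in members, 65.7 in cushion cells, 69.6 in other gated cells and 65.8 past the cardiac gate. The cardiomyocyte list summed to 16.6 in members, 16.9 in cushion cells, 28.2 in other gated cells and 611 past the cardiac gate. The part of such free RNA in any result was not tested.

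**Figure D1:**
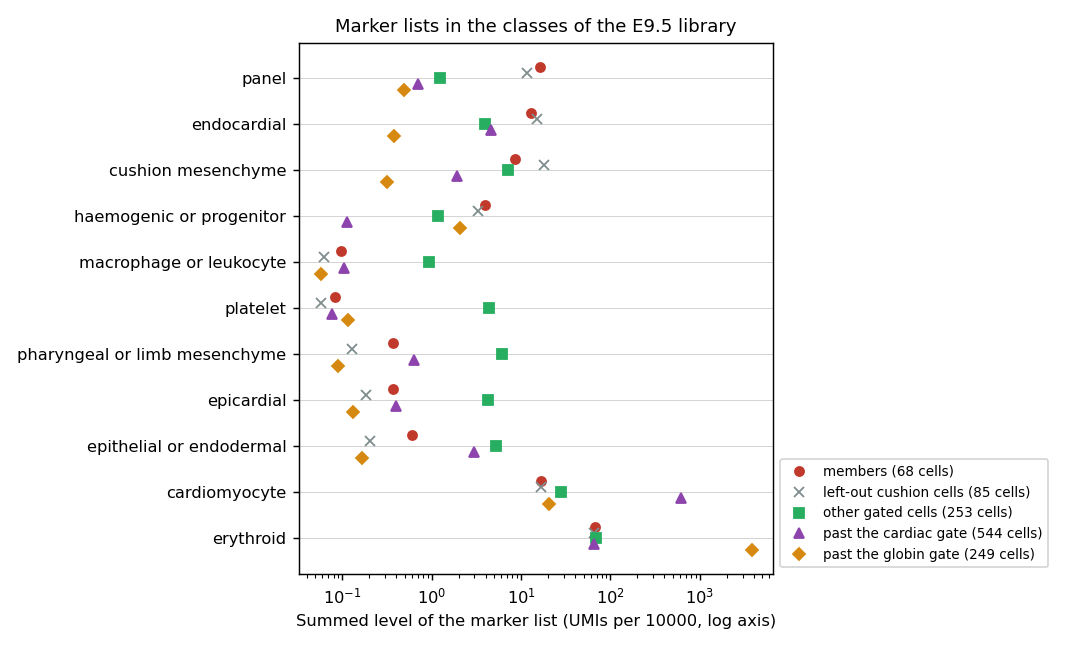
Summed level of each marker list (UMIs per 10000, log axis) in 5 classes of the E9.5 library, 1 point per class. Members and cushion cells are the highest classes on the panel and endocardial lists. They lie apart on the cushion mesenchyme list (8.57 against 18.0), which holds Msx1 and Hapln1, genes that the rule used to set them apart. Erythroid RNA lies between 65.7 and 69.6 in the 4 classes below the globin gate.

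Members differed from cushion cells at few genes. Of 6009 genes that reached 0.2 UMIs per 10000 in at least 1 of the classes, 148 (2.46%) were at least 2-fold apart, 85 higher in members (1.41%) and 63 lower (1.05%). The median log2 ratio over all 6009 was -0.02. Since Msx1, Hapln1 and Prrx1 set the classes apart, genes that go with them had to differ, and these counts describe the split. At least 4 of the 6 endothelial genes were required in both classes, which limits how far endothelial genes could differ.

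The gene with the highest ratio among the more abundant ones was Cldn5. Cldn5, a claudin of endothelial tight junctions (chromosome 16, 18776847 to 18778262, GRCm38), was at 1.80 (1.60 to 2.03) in members and 0.363 (0.286 to 0.455) in cushion cells, a ratio of 4.97 (3.84 to 6.49). A Cldn5 UMI was found in 34 of the 68 members and 19 of the 85 cushion cells, and single cells ran from 0 to 18.0 and from 0 to 4.30 per 10000, so the classes overlapped. After thinning, 27.9% of members had one, against 0% past the cardiac gate. Gng11, a G protein gamma subunit, had a ratio of 2.50 (2.16 to 2.90). Lmo2, a cofactor of Tal1 in blood and endothelial development, had 2.38 (1.96 to 2.90). Kdr, the main VEGF receptor, stood at 1.70 in members and 0.765 in cushion cells, a ratio of 2.23 (1.82 to 2.73). Exoc3l4 (2.29), Slc2a1, the basal glucose transporter (2.04), and Tubb6, a beta-tubulin (2.01), completed the 7 genes that also reached 1 UMI per 10000 in members and a UMI in 20% of thinned members.

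Genes lower in the members, 10 by the same rule, included 3 transcription factors of the forming cushion. Sox9, a factor of cushion and cartilage mesenchyme, was at 0.352 (0.265 to 0.458) in members and 1.48 (1.32 to 1.65) in cushion cells. The cushion excess was 4.20-fold (3.14 to 5.70). Most members had no Sox9 UMI, and the summed member level came mainly from a few cells. Single members ran from 0 to 8.78 and single cushion cells from 0 to 12.4, so the classes overlapped. Slc1a3, a glutamate transporter, was 3.21-fold lower and Pdlim3, an actin-associated LIM protein, 2.83-fold lower. Gata5 and Tbx20, cardiac transcription factors of endocardium and cushion, were 2.66-fold (2.03 to 3.52) and 2.37-fold (1.89 to 2.99) lower. Igfbp7, Rnd2, Rcan1, Lmo4 and Ccdc80 were between 2.24-fold and 2.02-fold lower.

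In the list of factors of endothelial-to-mesenchymal transition, 5 of 12 measured genes were at least 2-fold lower in members and none higher. These were Snai1, a repressor of epithelial junction genes (0.154 against 0.478), Twist1, a mesenchymal bHLH factor (0.397 against 0.851), Sox9, Tbx20 and Gata5. The median log2 ratio of the list was -0.56. In the jelly and matrix list 3 of 10 were lower: Has2, which makes hyaluronan (0.141 against 0.334), Vcan, the proteoglycan versican (0.313 against 0.65), and Col1a2. In the BMP and TGF-beta list 2 of 19 were lower, the inhibitory Smad7 (0.313 against 0.698) and the BMP modulator Bmper (0.16 against 0.468), and 1 was higher, the receptor Acvrl1 (0.205 against 0.0669).

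In the venous or lymphatic list 4 of 7 were higher: the apelin receptor Aplnr (0.947 against 0.215), Nrp2, a VEGF coreceptor (0.339 against 0.0573), Flt4, the VEGF-C receptor (0.288 against 0.134), and Lyve1, a hyaluronan receptor (0.211 against 0.0526). Kdr, Flt4 and Nrp2 were the 3 higher genes among the 10 measured of the VEGF and Tie list. Of 19 endothelial transcription factors 2 were higher, Lmo2 and Sox17 (0.819 against 0.339), and none was lower. Of the S-phase, G2/M and dissociation stress lists 0 of 12, 0 of 13 and 0 of 8 genes were 2-fold apart, which is near the 2.46% over all genes and shows nothing particular to them. In the Notch list 1 of 6 was higher (Mfng), and in the flow list 1 of 9 was lower, Klf4 (0.134 against 0.33), while Klf2, the main flow-induced factor, stood at 3.56 and 3.63.

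Clustering the members alone gave 2 groups, and the smaller one lay farther from the cushion cells. It held 25 cells (36.8% of members, 25.4 to 49.3) and is named by its leading gene, Cldn5. The other 43 cells are named by Cdkn1c, which encodes the cell cycle inhibitor p57. Median depth was 27749 UMIs per cell in the Cldn5-led group and 20091 in the Cdkn1c-led group, and the part of depth in this split was not tested. Every gene below helped to form the groups, so the values describe them and test nothing.

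**Figure D2:**
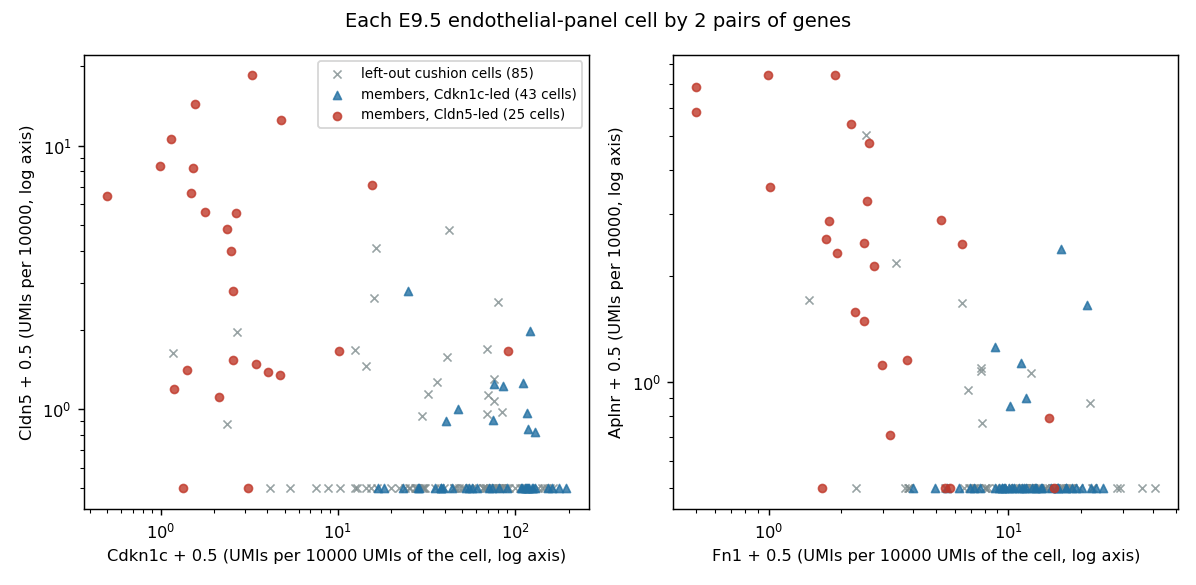
Each member and cushion cell by Cdkn1c and Cldn5 (left) and by Fn1 and Aplnr (right), in UMIs per 10000 of the cell with 0.5 added, on log axes. Of the 25 Cldn5-led members, 24 lie below the lowest Cdkn1c-led member in Cdkn1c (16.3 per 10000), and 17 of the 85 cushion cells also do.

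Cdkn1c (chromosome 7, 143458339 to 143461050, GRCm38) separated the groups almost completely. Cdkn1c-led members ran from 16.3 to 193 per 10000 with a median of 80.3, and Cldn5-led members from 0 to 90.6 with a median of 1.99. One Cldn5-led cell, at 90.6, carried 66.2% of that group's Cdkn1c UMIs, and the next highest was at 15.1. The summed level was 83.2 (81.3 to 85.2) in Cdkn1c-led members, 6.67 (6.08 to 7.30) in Cldn5-led members, 2.37 without that cell, and 56.2 (55.2 to 57.2) in cushion cells. In Cdkn1c the larger group thus lay nearer to the cushion cells than to the other members. Other gated cells and cells past the cardiac gate had levels of 9.76 and 7.81.

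Several imprinted growth genes lay the same way and others did not. H19, an imprinted noncoding RNA, was at 40.7 in Cdkn1c-led members, 13.0 in Cldn5-led members and 33.1 in cushion cells. Igf2, the embryonic growth factor beside it on chromosome 7, was at 5.15, 1.60 and 3.55, and Igf2r, the receptor that clears it, at 3.58, 0.41 and 2.14. Meg3 was at 5.71, 2.04 and 3.97. In the embryonic growth list Igf2, H19, Meg3 and Cdkn1c were the 4 of 13 genes at least 2-fold lower in the Cldn5-led group, and none was higher. Over all 6112 genes compared between the groups, 7.87% were lower and 5.02% higher. Mest, also imprinted, was close in both (26.6 and 30.7). Dlk1, an imprinted Notch-related ligand, was at 0.793 in Cldn5-led members, 0.595 in Cdkn1c-led members and 0.186 in cushion cells.

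The Cldn5-led cells had lower levels of most endocardial genes. Between the groups 788 of 6112 genes (12.9%) were at least 2-fold apart, 307 (5.02%) higher and 481 (7.87%) lower in the Cldn5-led cells. Of the 10 genes on the endocardial list, 9 were lower in the Cldn5-led group and only Plvap was not. Nfatc1, the endocardial factor needed for valve formation, was at 0.198 in Cldn5-led and 0.876 in Cdkn1c-led members. Npr3, the natriuretic peptide clearance receptor, was at 0.566 and 1.46. Nrg1, the neuregulin that signals to myocardium, was at 0.0425 and 0.619. These are low counts in the smaller group: Nrg1 had a UMI in 3 of 25 Cldn5-led cells and in 23 of 43 Cdkn1c-led cells.

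Cardiac transcription factors showed the same order. Hand2 was at 0.0991 in Cldn5-led members and 1.48 in Cdkn1c-led members, Irx5 at 0.0708 and 0.969, Tbx20 at 0.156 and 1.07, and Gata5 at 0.0708 and 0.759. Gata4 differed less, at 0.694 and 1.44. The Cdkn1c-led level was nearer to that of cushion cells for each of them, with 1.10 for Hand2, 0.54 for Irx5, 1.56 for Tbx20, 1.19 for Gata5 and 1.82 for Gata4 in cushion cells. Klf2 was at 1.47 in Cldn5-led members, 5.28 in Cdkn1c-led members and 3.63 in cushion cells, and Fn1, the matrix protein fibronectin, at 2.87, 12.3 and 11.3. The endocardial genes thus go against the label in the 25 Cldn5-led cells, which are called by their leading gene. They were higher over the 43 Cdkn1c-led cells as a whole, of which 13, described further on, had low levels of the label markers.

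The lists of vessel types leaned in different directions between the groups, and each held a gene that went the other way. The median log2 ratio of Cldn5-led over Cdkn1c-led cells was 0.86 for the venous or lymphatic list and -0.72 for the arterial list. It was 2.78 for the 3 measured genes of the capillary or coronary list. In the venous or lymphatic list 3 of 7 genes were higher in the Cldn5-led cells (Nr2f2, Aplnr and Nrp2) and Lyve1 was lower, and in the arterial list Sox17 was higher and 3 of 7 were lower (Efnb2, Hey1 and Unc5b). In the capillary or coronary list Cldn5 and Apln were higher and Car4 lower, and in the haemogenic or progenitor list 1 of 4, Cd34, was higher. Cldn5 itself was at 3.76 (3.33 to 4.25) in these cells, 0.187 (0.107 to 0.303) in Cdkn1c-led members and 0.363 in cushion cells, and 23 of the 25 cells had a UMI. Aplnr (chromosome 2, 85136225 to 85139923, GRCm38) was at 1.98, 0.0934 and 0.215, a ratio of 21.2 (10.5 to 50.1) between the member groups. Lmo2 was at 3.37, 0.665 and 0.793. Hhex, a homeobox factor of early endothelium, was at 1.37, 0.385 and 0.75, and Mef2c, a factor of vessel development and myocardium, at 1.37, 0.234 and 0.406. Sgk1, a serum-induced kinase, was at 2.24, 0.21 and 0.392. The 6 panel genes summed to 20.3 in Cldn5-led and 13.1 in Cdkn1c-led members, with Egfl7 (7.29 against 2.93) and Esam (2.92 against 1.40) at least 2-fold higher and Cdh5 at 2.32 and 2.34. Only 4 of the 6 had a ratio above 1 between these groups. Pecam1 was at least 2-fold lower in Cldn5-led members than in cushion cells. Of 20 endothelial transcription factors 6 were higher in the Cldn5-led cells and 2, Mecom and Nfatc1, lower.

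**Figure D3:**
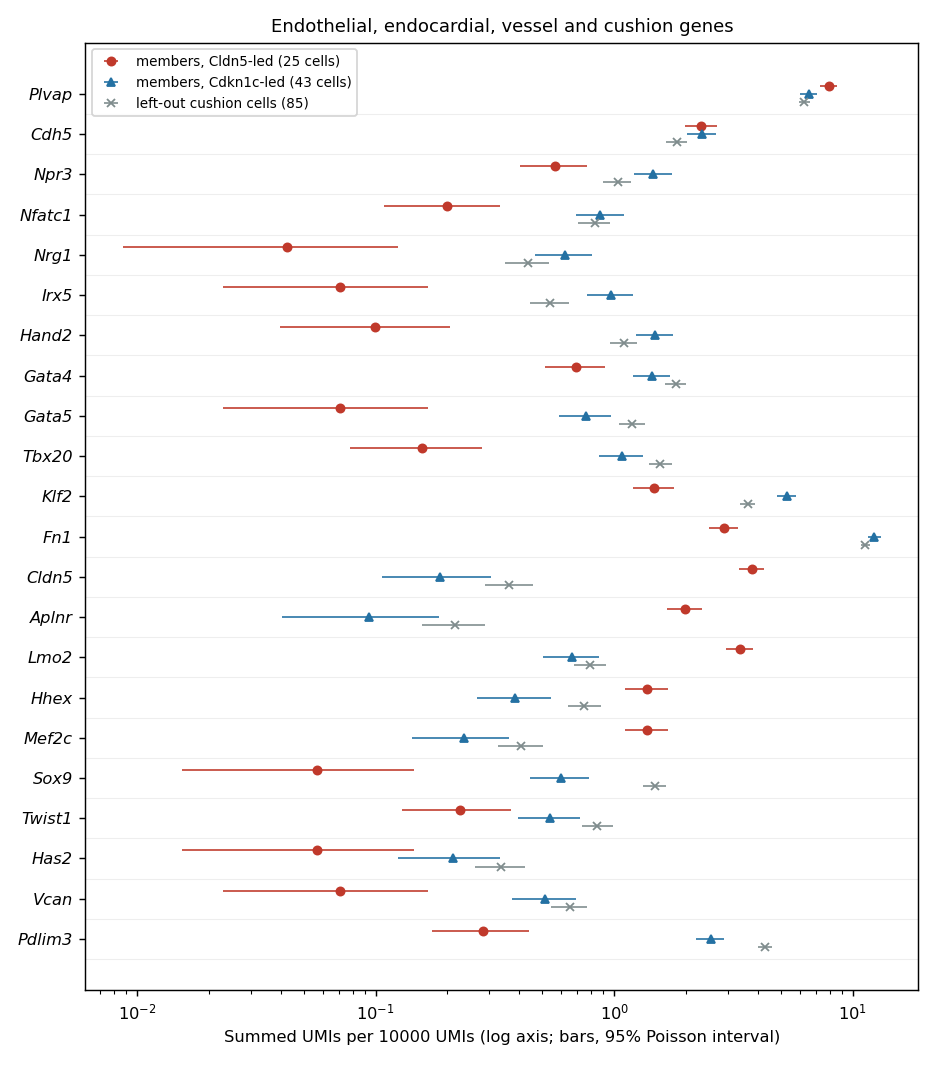
Level of 22 genes (summed UMIs per 10000, log axis, with 95% exact Poisson intervals) in the 25 Cldn5-led members, the 43 Cdkn1c-led members and the 85 cushion cells. From Npr3 to Fn1 the Cldn5-led points are the lowest, and the Cdkn1c-led points lie above or below the cushion points by gene. From Cldn5 to Mef2c the Cldn5-led points are the highest.

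The 13 G2/M genes summed to 30.2 in Cldn5-led and 22.6 in Cdkn1c-led members, and the 12 S-phase genes to 19.8 and 17.6, with 0 of the 25 genes 2-fold apart. The glycolysis genes summed to 120 and 78.0, with Slc2a1 (2.11 against 0.852) and Pfkl the 2 of 11 at least 2-fold higher in the Cldn5-led cells. Over all genes 12.9% were 2-fold apart between the groups, and 5.02% were higher in the Cldn5-led cells. The part of cell cycle state in the split was not tested. Erythroid sums were 67.0 and 68.5 and cardiomyocyte sums 14.7 and 18.2. Runx1, Gfi1 and Ptprc were at 0 in both groups.

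Set apart in this way, the groups stood at different distances from the cushion cells. Of 6076 genes, 641 (10.5%) were at least 2-fold apart between Cldn5-led members and cushion cells, 237 (3.9%) higher and 404 (6.65%) lower. Between Cdkn1c-led members and cushion cells 173 of 6063 (2.85%) were, 114 (1.88%) higher and 59 (0.973%) lower. Of the 85 genes higher in all members than in cushion cells, 67 were also 2-fold higher in the Cldn5-led cells alone and 40 in the Cdkn1c-led cells alone. For the 63 lower genes the shared counts were 61 and 16. Of the 85 higher genes, 8 turned direction in the Cdkn1c-led members alone and 5 in the Cldn5-led members alone. Among the genes named above, Cldn5, Aplnr and Lmo2 were lower in the Cdkn1c-led members than in cushion cells, Cldn5 and Lmo2 with log2 ratios of -0.96 and -0.25 and Aplnr at 0.0934 against 0.215.

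**Figure D4:**
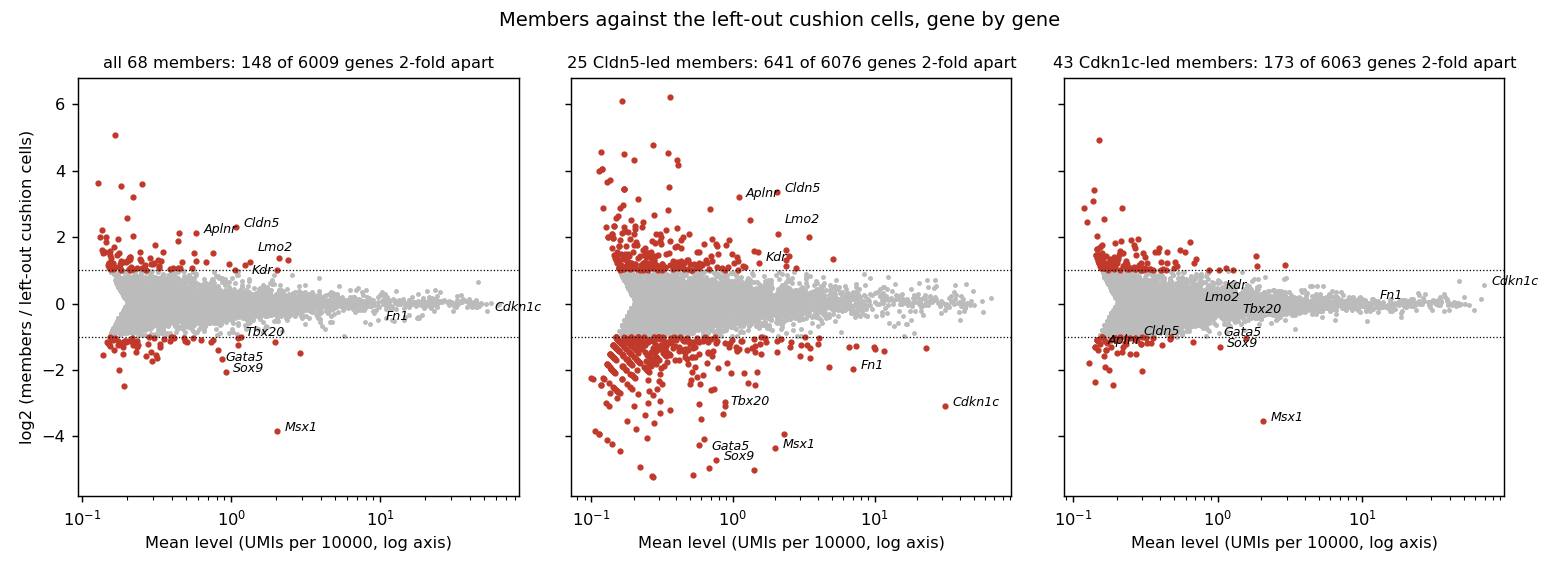
Log2 ratio of each gene between members and cushion cells against its mean level (UMIs per 10000, log axis), for all members, the 25 Cldn5-led members and the 43 Cdkn1c-led members. Red points are at least 2-fold apart; Cldn5 and Aplnr are far above 0 in the middle panel and below 0 in the right panel, and Msx1, which the rule used, is low in all 3.

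What still set the Cdkn1c-led members apart from cushion cells was a short list. At 1 UMI per 10000 or more and in 20% of thinned cells, 8 genes were higher. Tm4sf1, a tetraspanin-like protein of endothelial cells, was at 1.00 against 0.277, Igfbp5, a secreted IGF-binding protein, at 2.70 against 0.989, and Tmem100, an endothelial target of BMP signalling, at 1.02 against 0.401. Etv2, the factor that starts endothelial fate, was at 1.55 against 0.741, Gpr182, an endothelial receptor, at 1.70 against 0.841, with Slc9a3r2 at 1.35 against 0.674 and Exoc3l4 at 1.17 against 0.583. Xist, the X-inactivation RNA, was at 4.02 against 1.81. It depends on embryo sex, and how the pooled embryos of each sex fell into the classes was not tested.

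Lower in the Cdkn1c-led members by the same rule were Sox9 (0.595 against 1.48) and Emb, an immunoglobulin-family membrane protein (2.04-fold lower). Most Cdkn1c-led members had no Sox9 UMI and single ones reached 8.78, so the summed Sox9 level was not shared by the group. Of the 12 measured transition factors Snai1 (0.117 against 0.478) and Sox9 were lower, whereas Twist1 (0.537 against 0.851) was within 2-fold. In the matrix list 0 of 10 genes were 2-fold apart, and Has2 (0.21 against 0.334) and Vcan (0.514 against 0.65) were within that margin. In the endocardial list 9 of 10 were within 2-fold and Cdh11 was higher (0.28 against 0.11).

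At a finer clustering the 43 Cdkn1c-led cells parted further, and the Cldn5-led group kept 24 of its 25 cells. The remaining Cldn5-led cell, the one with Cdkn1c at 90.6, fell into the group led by Tm4sf1. One group of 13 cells was led by Pdlim3, Tubb3, Igfbp7, Cthrc1 and Map1b. In it Pdlim3 was at 5.92 and Sox9 at 1.61, beside 4.30 and 1.48 in cushion cells, and Hapln1 was at 10.9. Endothelial genes were low in the same 13 cells, with Emcn at 0.301, Kdr at 0.167 and Plvap at 3.15, and Msx1 was at 0.201. Their cushion mesenchyme list summed to 16.1, against 18.0 in cushion cells and 9.09 in the 22 cells that kept Cdkn1c as leading gene. Hapln1, which the rule used, made up most of that 16.1, and Msx1, also a rule gene, is on the list too. In these 13 cells Sox9 and Pdlim3, which the rule did not use, go against the name outside the cushion programme. All 13 had at least 5 Hapln1 UMIs, and 0 had at least 2 Msx1 UMIs. Those 22 cells were led also by Plagl1, Gpr182 and Irx5, with Cdkn1c at 97.9 and Emcn at 3.35. A last group of 9 cells was led by Tm4sf1 with cell cycle genes (Nusap1, Aurka, Cenpf and Mki67) and had Emcn at 4.59 and Kdr at 2.66. Clusters of 9 to 24 cells give levels with wide intervals, for example 0.138 to 0.572 for Emcn in the 13 cells.

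Against the other gated cells, which hold several mesenchymal, epicardial, blood and epithelial populations, members carried the endothelial programme that the panel selects. Of 6316 genes 804 (12.7%) were at least 2-fold apart, 437 (6.92%) higher and 367 (5.81%) lower, with a median log2 ratio of -0.06 over all of them. The panel chose the members, so the counts show what goes with it. Endothelial transcription factors were higher for 18 of 19 measured genes, with a median log2 ratio of 2.53. Sox18, a SOX factor of vessels, was at 1.00 against 0.0298, Fli1, an ETS factor, at 1.04 against 0.227, and Etv2 at 1.47 against 0.224. The exception was Mef2c, at 0.749 against 0.991.

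By the naming rule, the highest ratios in members outside the panel were those of Cldn5 (ratio 218, interval 92.2 to 676), Gja4, an arterial and endocardial connexin (69.5, 35.7 to 155), and Gpr182 (66.8, 35.5 to 142). Rasip1, a Ras-interacting protein needed for vessel lumens, was at 2.16 against 0.0945. Receptors followed, with Tie1 at 1.15 against 0.0597 and the semaphorin receptor Plxnd1 at 1.17 against 0.063. In the basement membrane list 9 of 13 genes were higher, and all 5 measured genes of the caveolae and uptake list were. In the list of signals to and from myocardium 8 of 11 were higher and 1, Apela, lower. In the flow list 4 of 8 were higher: Klf2 (3.56 against 0.471), Nos3, Piezo1 and Edn1.

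Lower in members than in the other gated cells were genes of mesenchyme and epithelium. The retinoid-binding Crabp1 was at 0.102 against 2.24, Wnt2 at 0.0704 against 1.35, the Wnt antagonist Sfrp1 at 0.109 against 1.49, the glypican Gpc3 at 0.275 against 3.73 and the keratin Krt18 at 0.23 against 2.41. All 6 epicardial and all 7 measured pharyngeal mesenchyme markers were lower, as were 7 of 13 matrix genes, with Fn1 the 1 higher gene (8.04 against 2.43). In the BMP and TGF-beta list the receptors Acvrl1, Acvr1, Eng and Tgfbr3, the inhibitory Smad6 and the ligand Tgfb1 were higher, and the ligands Bmp2, Bmp4, Bmp7 and Tgfb2 were lower. In the cell cycle lists 0 of 25 genes were 2-fold apart.

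Among the members, cells varied most in a few abundant genes. With every member thinned to 5000 UMIs, the median ratio of variance to mean over 3769 genes was 1.08, close to the value of 1 that counting alone gives. Actb, a cytoplasmic actin, had the highest ratio (43.9), with single members from 11.5 to 360 per 10000 around a median of 33.8. Cdkn1c followed at 26.9, then Rps2 (10.8) and Tmsb4x (10.3), the thymosin that binds actin monomers. The Actb level was 52.8 in Cldn5-led and 57.3 in Cdkn1c-led members, against 35.4 in cushion cells. Split by the cushion cuts it was 198 in the 10 shallow members with neither Msx1 nor Hapln1 at the cut and 45.6 in the 53 with Hapln1 only, and the part of depth in that was not tested. Car4 (6.61) and Cthrc1 (5.69) varied through few cells, with a UMI in 10 and 20 members.

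The same rule found 59 cells in the E16.5 mitral valve library and 138 and 73 in the P0 libraries. Among gated cells with at least 4 panel genes, 0, 0 and 1 there met the cushion cuts, against 85 at E9.5. Those cuts are on raw UMIs, and the part of depth in these counts was not tested. The 59, 138 and 73 cells had median depths of 3118, 6684 and 5135 UMIs. Stage, dissected region and depth differ together, so values are set side by side with no test. The 4 libraries could not be compared for how often the panel was met without regard to depth: thinned to 2000 UMIs, 18 of 406 gated cells at E9.5 had at least 4 panel genes, against 34 of 192 at E16.5 and 77 of 269 and 43 of 157 at P0. The genes below were chosen after the E9.5 values were seen.

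Of the 4 label markers, 3 are panel genes that chose the cells, and in shallower libraries the rule takes cells with higher panel levels, so their values are given without comparison. Cdh5 stood at 2.33 in members, 6.57 in the E16.5 cells and 7.62 and 6.57 in the P0 cells, Egfl7 at 4.90, 10.4, 12.9 and 12.3, and Emcn at 3.01, 3.11, 3.93 and 4.63. Plvap, outside the panel, was at 7.16, 1.85, 1.43 and 1.70 in the same order. Hapln1 (6.74, 0.195, 0.298 and 0.491) and Cdkn1c (48.6, 1.41, 3.56 and 3.93) were likewise highest at E9.5. Etv2 was at 1.47 (229 UMIs) at E9.5 and had no UMI in the other 3 libraries.

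Genes of lipid uptake and caveolae were the reverse. Fabp4, a fatty acid binding protein of capillary endothelium, had no UMI in any member and stood at 46.0, 52.4 and 50.4 in the valve libraries. Cd36, a fatty acid receptor, was at 0.0128 in members and 4.28, 9.19 and 10.0 there, and Cav1, the caveolin of endothelium, at 0.147 in members and at least 9.53 in each valve library. Genes of the endocardial list did not lie one way between the stages. Npr3 was at 1.06, 1.07, 1.93 and 1.52 and Nfatc1 at 0.569, 0.389, 0.577 and 0.43. Gata4 (1.10, 0.486, 0.558 and 0.43), Nrg1 (0.358, 0, 0.112 and 0.266) and Plvap, given above, were highest at E9.5. Cldn5, which marked the smaller E9.5 group, was at 1.80 over all members and 4.04, 5.86 and 4.75 in the valve libraries.

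**Figure D5:**
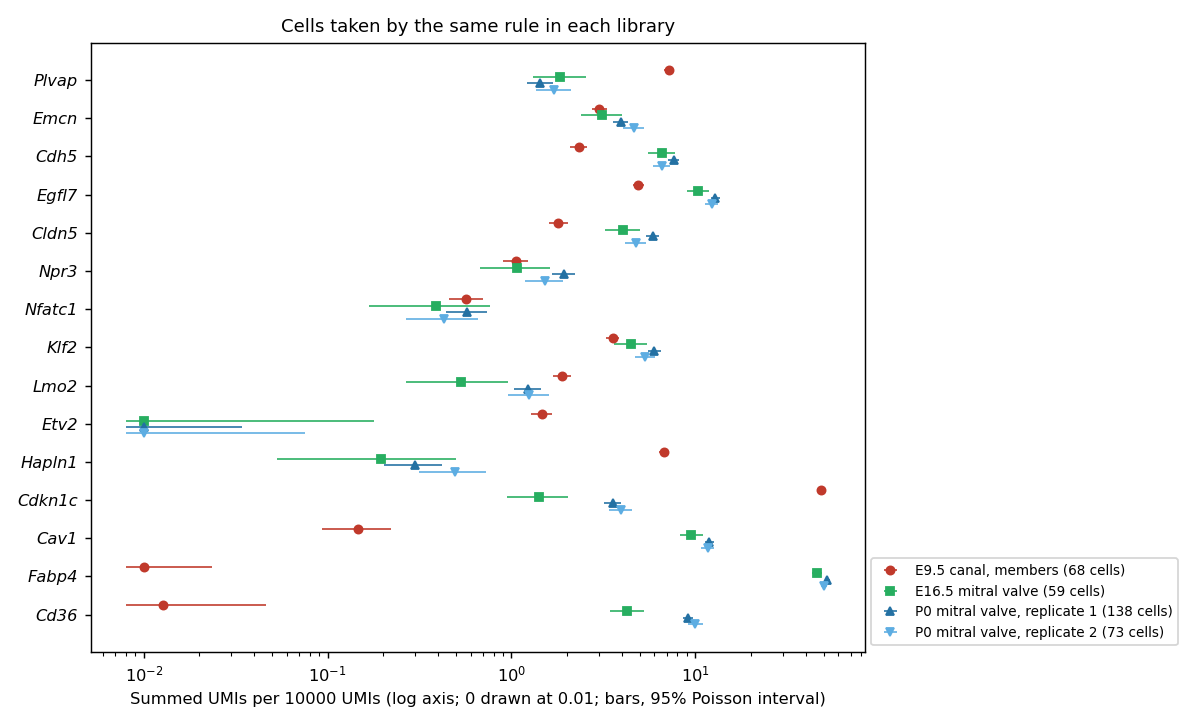
Level of 15 genes (summed UMIs per 10000, log axis, with 95% exact Poisson intervals, 0 drawn at 0.01 and bars cut just below it) in the cells that the same rule takes from each of the 4 libraries. Plvap, Etv2, Hapln1 and Cdkn1c are highest in the 68 E9.5 members, and Cav1, Fabp4 and Cd36 in the valve libraries.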

How the data were processed

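UMI counts per gene and cell were deposited by the authors as 1 sparse matrix per library, with 27998 gene identifiers. Per the labels, cells were digested, blocked in 10% serum, sorted on the tomato reporter and prepared with a 3' single cell kit, and per the submitters' processing notes Cell Ranger 2.1.1 and the mm10 build were used. A 3' tag counts molecules near the transcript end, so isoforms and antisense overlaps are not resolved. Mapping settings are not stated in these sources. Symbols came from the deposited gene tables (15 differ in 1 table) and loci from GENCODE on GRCm38. In 2 libraries the barcode list is the full set of 737280, and the P0 lists are named for the opposite library, so barcodes were not used and sharing between libraries could not be counted.

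The E9.5 library held 30819374 UMIs. UMIs were summed over each class, and a gene was compared if it reached 0.2 per 10000 in 1 class and called if at least 2-fold apart, with a class of 0 UMIs set at 3. Intervals are 95% exact Poisson, or exact binomial for ratios and shares. No sample-level test was possible with 1 library. Genes named from each comparison had to be called, to reach 1 per 10000 in the higher class and to have a UMI in 20% of its cells thinned to 5000 UMIs, and up to 12 per direction were taken in order of ratio. The label and rule genes, the leading 10 genes of each group, the 15 most variable genes and 2 to 4 genes per list by level could also be named. Other list genes, and those of the stages and finer clusters, were chosen after their values were seen. The members, their rule and all 16 marker and 17 gene lists were chosen with earlier results of these data known. Members were clustered on 2000 variable genes, 20 principal components and 15 neighbours (scanpy 1.11.5, Leiden, resolution 0.5, and 1 for the finer clusters). Doublets were marked with scrublet, which marked too few cells to be taken as working, and were kept. Whether the P0 pair shares litters is not said in the labels. The sums and ratios were tested on simulated counts. Alternatives used TMM totals from edgeR 4.0.16 and size factors from DESeq2 1.42.0.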

Additional observations from a re-analysis of the deposited data

How the results depend on the processing

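TMM totals in all 3 comparisons, and DESeq2 size factors in the 2 of all members, moved no count of calls by over 1.5 times. The member share of 16.7% became 21.9% with 3 panel genes and 11.6% with cushion cells taken at 1 Msx1 and 3 Hapln1 UMIs. Of the genes higher in members than in cushion cells (85) there were 149 by the mean over cells, 9 with a level filter of 1 per 10000, 931 with 1 UMI in each class, 134 with 3 panel genes, 339 with the rule on thinned cells, 1175 with only the 10 members under both cuts and 237 with only the Cldn5-led cells. The lower genes (63) became 11 with that filter, 657 with 1 UMI, 393 on thinned cells, 802 under both cuts and 404 with Cldn5-led cells. Against other gated cells the higher genes (437) became 112, 1387 and 1327 and the lower (367) 45, 1547 and 936 with the filter, with 1 UMI and under both cuts, and the lower 581 with Cldn5-led cells. Between the member groups thinning gave 922 higher and 886 lower. Fewer or more genes pass each filter by construction, and the other causes were not tested. Resolution 1.0 gave 4 groups. Cldn5 (-0.96) and Lmo2 (-0.25) turned direction in the Cdkn1c-led cells alone, and Lmo4 (0.17) in the 10 members under both cuts. Over all calls more genes turned: against cushion cells 8 of the higher ones in Cdkn1c-led and 5 in Cldn5-led cells, 11 higher and 5 lower on thinned cells, and 6 and 16 under both cuts. Against other gated cells 10 and 95 did under both cuts and 22 higher ones in Cldn5-led cells, and between the member groups 24 and 67 did on thinning. Other settings turned 16 or fewer per direction. Choices made after seeing the data were the restrictions to 1 member group and all alternatives for genes 2-fold apart between the member groups. So was leaving cells that met the cushion cuts out of the other gated cells. Limits of 25 on both gates left no member (lowest globin level 45.9). No paired analysis was possible because E9.5 has 1 library.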

Other observations

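Some values fall outside the comparisons above. The 30 gated cells that met the cushion cuts with under 4 panel genes had Sox9 at 3.06, Pdlim3 at 8.95 and Hapln1 at 13.3 UMIs per 10000, and no Cldn5 UMI. In the 13 Pdlim3-led members, the neural or crest list summed to 2.01 per 10000 and the epicardial list to 1.71, against 0.39 and 0.371 over all members. Foxf1, a mesenchymal forkhead factor, was found in 3 members. Car4, a carbonic anhydrase of capillaries, was at 0.992 in the Cdkn1c-led members and 0.0142 in the Cldn5-led members, with 38.4% of its UMIs in all members from 1 cell.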
